A study of Drosophila melanogaster with 16 samples.

Results

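The comparison set the Polycomb mark H3K27me3 in nuclei from Kenyon cells, the principal neurons of the fly's olfactory memory centre, the mushroom body, against the same mark in nuclei from all neurons of the adult Drosophila head. It was chosen by driver line and antibody, and comprised 5 of the 16 samples of the series: 1 OK107 H3K27me3 library and its input, and 2 R57C10 H3K27me3 libraries and their input. Both lines carried a GAL4 driver and a GFP-tagged unc84 nuclear envelope protein, which allowed the nuclei to be captured on beads from frozen adult heads before the chromatin was cut with micrococcal nuclease. OK107-GAL4 drives expression primarily, and by its label not solely, in Kenyon cells, and its insertion lies near the gene eyeless (ey). R57C10-GAL4 drives it in all mature neurons, which include Kenyon cells. The third line, Tdc2-GAL4 with the same tagged protein, labels mainly octopaminergic neurons. Its 2 H3K27me3 libraries entered the filter on low counts, the scaling, the estimate of spread and side-by-side values. With the Tdc2 input they also set classes of genes by level of the mark. Of these 2 libraries, 1 carries the same date tag as OK107. Each library came from many heads, and the labels do not say whether the R57C10 libraries came from separate preparations, so p-values measure only the spread between these samples.

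H3K27me3 is placed by the enhancer of zeste subunit of Polycomb repressive complex 2 and covers genes that are held silent, often as broad domains over several neighbouring genes. In differentiated neurons it covers developmental regulators and genes of other cell fates. H3K27ac and H3K4me3 mark active promoters, and acetylation and trimethylation cannot occupy the same lysine 27. Read counts come from a population of nuclei, so a lower level can mean fewer nuclei that carry the mark or less mark in each nucleus, and these cannot be told apart here.

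Gene bodies of 15182 genes were counted, of which 14585 passed the filter on low counts, 597 did not and are not tested. The deposited counts, with one isoform kept per gene, totalled 54.75 M in OK107, and 45.77 M and 36.28 M in the R57C10 libraries, which are called early and late by the date tags in their names. The inputs held 56.09 M for OK107 and 45.64 M for R57C10. OK107 had another date tag than each R57C10 library, so driver line and date cannot be told apart in this contrast. Levels below are TMM-scaled CPM, the count of a gene relative to the scaled total of its library. A gene was called at an adjusted p under 0.05 in edgeR's quasi-likelihood test, in which OK107 with its 1 library takes its spread from R57C10 and from the 2 Tdc2 libraries, which held 8.54 and 7.77 M counts. Across the 14585 genes, log2 levels of OK107 had a Pearson r of 0.988 with R57C10 early and 0.988 with R57C10 late, and those of the 2 R57C10 libraries had 0.995. Genes differ in length, which these values share, so the coefficients describe the libraries only.

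Most genes carried like amounts of H3K27me3 in Kenyon cells and in all neurons, and 319 were called, which is 2.19% of those tested. Of these, 229 (1.57%) were higher and 90 (0.617%) lower in OK107. The changes were moderate. The absolute log2 fold had a median of 1.00 among the higher genes, from 0.64 to 11.18, and a median of 1.02 among the lower genes, from 0.72 to 3.39. The value of 11.18 belongs to mthl8, which had 0 H3K27me3 counts in each R57C10 library. Its input held 0 counts in R57C10 and 1188 in OK107, so the size of this fold is not exact. With the inputs as an offset mthl8 was not called. Without a call, OK107 lay above both R57C10 libraries in 36.9% of all genes tested and below both in 32.2%. The count of calls moved by over 1.5 times with scaling and with the libraries used. It was 847 (274 higher, 573 lower) without R57C10 early and 651 (508 higher, 143 lower) without R57C10 late. Leaving out a Tdc2 library gave 993 or 990, RLE scaling gave 146, and scaling by total count gave 634 with 58.2% higher, against 71.8% higher as reported. No called gene changed sign under these, and 107 of the 319 were called under all 15 alternatives.

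**Figure D1:**
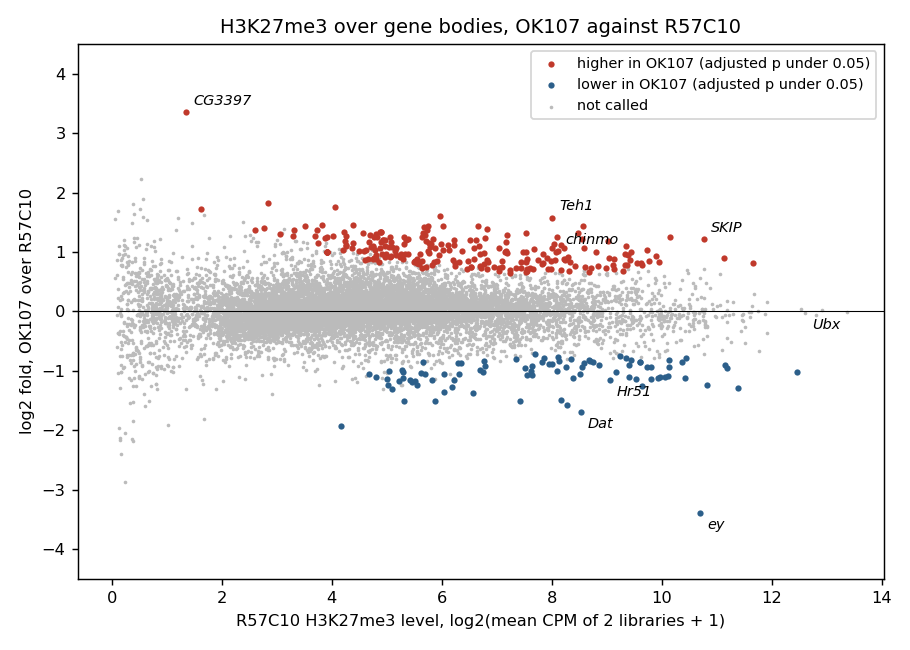
Each point is 1 of the 14585 genes tested, with the R57C10 H3K27me3 level (log2 of the mean CPM plus 1) on the x axis and the log2 fold of OK107 over R57C10 on the y axis. The 229 higher genes spread over a wide range of levels, with SKIP among those of high level. The gene ey stands alone at -3.39, and the Hox gene Ubx lies at the right edge near 0. Beyond the axis limits of 4.5 lie 4 genes, of which 1 is called (mthl8).

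The eyeless gene (CG1464, chromosome 4, 718315 to 741787, dm3), a Pax6 transcription factor needed for mushroom body development, carried far less H3K27me3 in the Kenyon cell line. Its gene body held 159 CPM in OK107, against 1377 CPM in R57C10 early and 1943 CPM in R57C10 late. The OK107 value lay far below both R57C10 values, and below the 878 and 940 CPM of the Tdc2 libraries. The log2 fold was -3.39 ± 0.25 (SE, adjusted p = 2.0e-04), and ey was called under all 15 alternatives. The OK107 input was lower too, with 174 CPM at ey, where the R57C10 input had 301 CPM. Set against input by total counts, the log2 ratio of ey was -0.31 in OK107, against 2.16 in R57C10 early and 2.45 in R57C10 late, so ey carried the mark above its input in R57C10 and not in OK107. In Tdc2 the log2 ratio was 1.97.

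At 2 of the 3 promoter windows of ey the active marks were higher in OK107. In the 1001 bp window shared by isoforms RA and RD, H3K27ac was 257 CPM in OK107, against 58.0 and 60.2 CPM in R57C10, and H3K4me3 was 236 CPM in OK107, against 59.5 and 49.1 CPM in R57C10. The window of isoform RC had 159 CPM of H3K27ac in OK107 and 39.2 and 35.3 CPM in R57C10. At both windows OK107 lay above both R57C10 values in each mark, while the inputs of the RA and RD window were 60.6 CPM in OK107 and 70.7 CPM in R57C10. The window of isoform RB, whose gene body is the one tested, had little of either mark, and OK107 lay within the R57C10 range. There H3K27ac was 8.44 CPM in OK107, against 7.78 and 8.59 CPM in R57C10, and H3K4me3 was 3.92 CPM in OK107, against 7.67 and 2.14 CPM. The OK107 driver is inserted near ey, and its part in these values was not tested.

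The Pax6 paralog toy and the nuclear receptor Hr51 (unfulfilled), which acts in mushroom body axon development, were also lower. Gene-body H3K27me3 of toy was 332 CPM in OK107, against 596 and 874 CPM in R57C10 (log2 fold -1.15 ± 0.22, adjusted p = 0.021). For toy the OK107 input held 105 CPM, that of R57C10 166 CPM, and with the inputs as an offset its fold was -0.49 with adjusted p = 0.283, the highest over its 15 alternatives, which ran down to 7.8e-52. Hr51 (2R) had 238 CPM in OK107, against 449 and 611 CPM in R57C10 (-1.16 ± 0.20, adjusted p = 0.013), with near equal inputs of 74.8 CPM in OK107 and 79.9 CPM in R57C10. Both genes kept H3K27me3 above input in OK107, with log2 ratios of 1.48 for toy and 1.49 for Hr51. At the Hr51 promoter, H3K27ac was 28.8 CPM in OK107 and 11.5 and 12.5 CPM in R57C10, and H3K4me3 was 27.4 CPM in OK107 and 16.2 and 10.5 CPM in R57C10.

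Of 29 genes known from Kenyon cells, 5 were lower (ey, Hr51, toy, Eip93F and D2R), 1 was higher (chinmo), and 22 lay below both R57C10 libraries. Over all genes tested 0.617% were lower, 1.57% higher and 32.2% below both. The median log2 fold of the 29 was -0.33, beside 0.01 over all genes tested. The ecdysone-induced factor Eip93F had 380 CPM in OK107, against 603 and 706 CPM in R57C10 (-0.79 ± 0.17, adjusted p = 0.037). The D2-like dopamine receptor gene D2R had 161 CPM in OK107, against 254 and 297 CPM in R57C10 (-0.77 ± 0.17, adjusted p = 0.038). The call of Eip93F ended in 5 of 15 alternatives, among them without either Tdc2 library (adjusted p = 0.084 and 0.083, with a range of 1.1e-19 to 0.237 over all alternatives). That of D2R ended in 2, with a range of 2.5e-09 to 0.105. Several others lay below both R57C10 libraries without passing the test. The D1-like dopamine receptor gene DopR2, which acts in olfactory memory, had a fold of -0.78 (adjusted p = 0.052). The genes jdp, dac and pros had -0.77, -0.72 and -0.67, the peptide gene sNPF -0.67 and the adenylyl cyclase gene rut -0.57.

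The BTB zinc finger gene chinmo (2L, 1651260 to 1704682), which governs temporal identity of mushroom body neurons, went the other way. It had 561 CPM in OK107, against 265 and 288 CPM in R57C10. OK107 was about level with Tdc2, at 488 and 472 CPM, and R57C10 was the lower line. The fold was 1.02 ± 0.15 (adjusted p = 0.0084). At the promoter of its isoforms RD, RE, RG and RH, H3K27ac was 68.5 CPM in OK107 and 122 and 104.4 CPM in R57C10.

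Promoter marks of Kenyon cell genes did not move one way. Over the 29 genes, each at the window of the isoform kept, OK107 H3K27ac lay above both R57C10 libraries in 12 and below both in 13, where the shares over all genes were 37.2% and 43.4%. H3K4me3 lay above both in 9 and below both in 10, where those shares were 23.1% and 15.5%. The portabella gene prt (CG10251), a vesicular transporter gene of Kenyon cells, had 48.3 CPM of H3K4me3 in OK107, against 11.7 and 10.9 CPM in R57C10, and 94.8 CPM of H3K27ac in OK107, against 53.8 and 56.7 CPM. The Kenyon cell factor dac had 58.6 CPM of H3K27ac in OK107, against 39.4 and 40.8 CPM in R57C10. In the other direction, the transcription factor gene Mef2 had 69.7 CPM of H3K27ac in OK107, against 100.0 and 94.3 CPM in R57C10, and the protein kinase A gene Pka-C1 had 47.9 CPM, against 113 and 82.2 CPM. Marks of general neuronal promoters were lower in OK107: n-syb, a synaptic vesicle fusion gene, had 78.1 CPM of H3K27ac in OK107, against 217 and 202 CPM in R57C10, and Syt1, a synaptic calcium sensor gene, had 26.0 CPM, against 54.9 and 49.1 CPM. The list of transgene loci held n-syb as well as ey, and the part of transgenes in the n-syb values was not tested. The glial factor gene repo had 44.6 CPM of H3K27ac in OK107, against 22.7 and 30.0 CPM in R57C10, beside 15.0 CPM of H3K4me3 in OK107 and 14.3 and 6.79 CPM in R57C10. The inputs of the repo window were 98.9 CPM in OK107 and 88.4 CPM in R57C10, so both marks lay below input in each library.
Over 20 glial genes, OK107 promoter H3K27ac lay above both R57C10 libraries in 14, and over 33 muscle, fat body and blood genes in 21, where the share over all genes was 37.2%. The same held for lists that stand for no single cell type. It lay above both in 108 of 122 cuticle protein genes (below both in 7), 21 of 30 segmentation genes (6) and 43 of 66 other homeobox genes (16). Over 24 pan-neuronal genes it lay below both in 21, where the share over all genes was 43.4%. The part of nuclei other than Kenyon cells in the H3K27me3 differences was not tested.

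**Figure D2:**
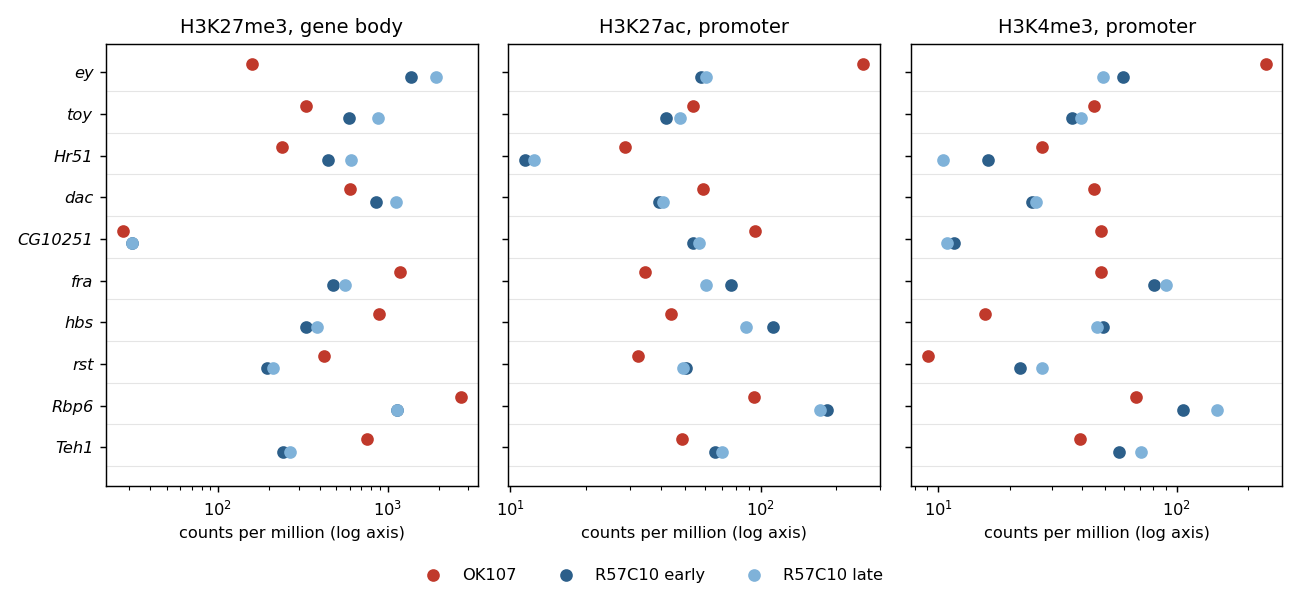
CPM (log axis) of H3K27me3 over the gene body and of H3K27ac and H3K4me3 at the promoter in the OK107 library and the R57C10 early and late libraries, for 10 genes, each at its promoter window with the largest summed counts of the active marks. At ey the OK107 point lies left of both R57C10 points in H3K27me3 and right of them in the active marks, and at hbs and rst these orders are turned round.

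Calls among receptors of transmitters went in both directions. Of 10 nicotinic acetylcholine receptor subunits 2 were lower and 0 higher, and of 24 ionotropic glutamate, GABA, histamine and chloride channel receptors 1 was lower and 2 higher. Over all genes tested 0.617% were lower and 1.57% higher. The alpha subunit gene nAcRalpha-34E (2L) had 335 CPM in OK107, against 708 and 884 CPM in R57C10 (-1.25 ± 0.19, adjusted p = 0.0088). The subunit gene nAcRalpha-30D (2L) had 762 CPM in OK107, against 1535 and 2064 CPM in R57C10 (-1.24 ± 0.21, adjusted p = 0.011). Both lay above input in R57C10, with log2 ratios to input of -0.93 and -0.51 in OK107 and of -0.44 and -0.34 in Tdc2. The call of nAcRalpha-30D ended with the OK107 and R57C10 libraries alone (adjusted p = 0.107, the highest over its alternatives, with 5.7e-89 as the lowest).
Glu-RI (3L), a subunit of AMPA-like glutamate receptors, had 102 CPM in OK107, against 252 and 321 CPM in R57C10 (-1.49 ± 0.19, adjusted p = 0.0041). Of 17 monoamine and muscarinic receptor genes, 3 were lower: the muscarinic receptor gene CG7918 (-1.14), the serotonin receptor gene 5-HT1B (-0.80) and D2R. The potassium channel gene KCNQ was the 1 of 19 potassium channel genes that was lower, with 245 CPM in OK107, against 410 and 512 CPM in R57C10.

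At these receptor genes the active marks did not all move the other way. The nAcRalpha-30D promoter had 73.6 CPM of H3K27ac in OK107, against 92.2 and 83.7 CPM in R57C10, and that of Glu-RI had 54.9 CPM, against 92.9 and 87.6 CPM. At both, OK107 was lower in H3K27me3 and in H3K27ac. The promoter of CG7918 had 108 CPM of H3K27ac in OK107, against 115 and 104.4 CPM in R57C10, which is within the R57C10 range.

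Dat (2R), which encodes the dopamine N-acetyltransferase that inactivates monoamines, stood second to ey among the 12 lower genes named by size of fold. It had 114 CPM in OK107, against 307 and 428 CPM in R57C10 (-1.69 ± 0.21, adjusted p = 0.0033). The inputs were near equal, at 113 CPM in OK107 and 120 CPM in R57C10, and H3K27me3 lay above input in R57C10 and not in OK107. The log2 ratio in Tdc2 was 1.17. At the promoter of isoform RB, H3K27ac was 69.9 CPM in OK107 and 31.2 and 38.2 CPM in R57C10, and at that of isoform RA it was 59.9 CPM in OK107 and 67.7 and 61.5 CPM in R57C10.
Among the odorant receptors, which are silent in most neurons, 3 of 58 were lower and 0 higher: Or45a (25.4 CPM in OK107, against 57.3 and 72.1 CPM in R57C10), Or85b and Or85c. The share of lower genes over all genes was 0.617%, and Or85b and Or85c are neighbours, so these are 2 loci. The nitric oxide synthase gene Nos, with 449 CPM in OK107 and 847 and 1105 CPM in R57C10, had a fold of -1.12. Other lower genes were the phagocytic receptor gene nimC4 (-1.51), the peptidoglycan recognition gene PGRP-LA (-1.15) and the attacin gene AttC (-1.05), which belong to none of the lists. The gene nimC4 lies within nAcRalpha-34E, which was also lower, so these genes share reads. Without R57C10 late, Or85c and AttC were not called (adjusted p = 0.245 and 0.086, the highest over their alternatives, with 5.6e-06 and 1.3e-05 as the lowest). The late R57C10 library lay above the early in all 90 lower genes, with a median log2 difference of 0.33, and in 191 of the 229 higher genes, with 0.13. Over genes not called the median was -0.02, and the part of this difference in the calls was not tested.

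**Figure D3:**
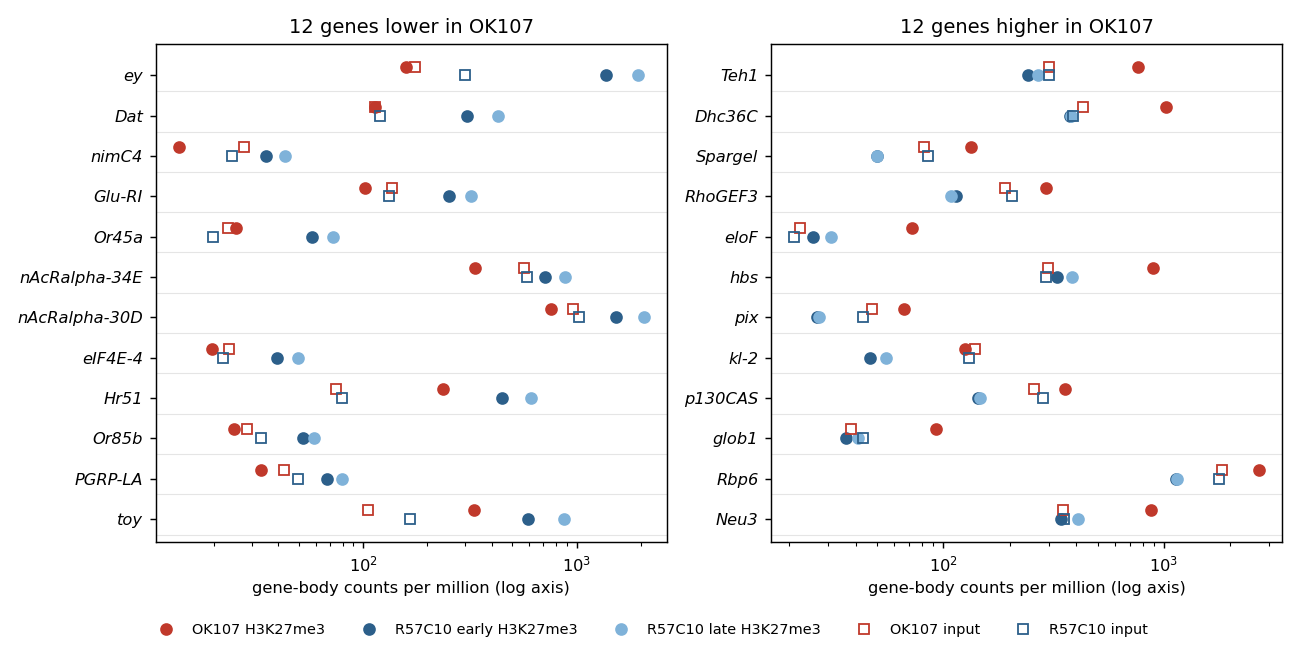
H3K27me3 CPM (filled circles, log axis) and input CPM (open squares) in OK107 and R57C10 for the 12 largest folds called in either direction, over genes of above-median level that have a name other than a CG or CR number. In the left panel each OK107 circle lies left of both R57C10 circles, and in the right panel right of them, while most input squares of the lines lie close together.

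Genes higher in OK107 included cell recognition proteins and receptors of the neuronal surface. Of 46 axon guidance and cell recognition genes, 7 were higher (hbs, fra, rst, Ptp10D, kirre, stan and sns) and 1 was lower (NetB), with a median fold of 0.10. Over all genes tested 1.57% were higher and 0.617% lower. The genes of this list are long, with a median of 36700 bp, against 1938 bp over all genes. Kenyon cell genes (29280 bp), dpr and beat genes (31910 bp) and peptide receptor genes (17130 bp) are long too. Called genes had medians of 4975 bp (higher) and 10450 bp (lower), against 1914 bp in genes not called. The part of length in these counts was not tested. The 4 immunoglobulin proteins hbs, sns, rst and kirre bind each other across cells, the first pair on one side and the last pair on the other, and all 4 were higher. The gene hbs (2R, 10898903 to 10928901) had 891 CPM in OK107, against 329 and 382 CPM in R57C10 (1.32 ± 0.16, adjusted p = 0.0027). Its partner rst (X) had 420 CPM in OK107, against 196 and 212 CPM in R57C10 (1.05 ± 0.16, adjusted p = 0.0085). The genes kirre and sns had folds of 0.82 ± 0.17 (adjusted p = 0.033) and 0.68 ± 0.16 (adjusted p = 0.0499). Their calls were the least steady of the 4, ending in 4 of 15 alternatives for kirre and 6 for sns, among them without either Tdc2 library (adjusted p = 0.302 in both cases for kirre, and 0.183 and 0.181 for sns). The adjusted p over all alternatives ran from 1.4e-92 to 0.625 for kirre and from 2.8e-18 to 0.437 for sns. For stan it ran from 5.6e-29 to 0.320, with 0.082 without either Tdc2 library. R57C10 levels of hbs were close to input (log2 ratios of 0.13 and 0.15), where OK107 had 1.40.
The hbs promoter had 43.7 CPM of H3K27ac in OK107, against 112 and 87.3 CPM in R57C10, and 15.8 CPM of H3K4me3 in OK107, against 49.0 and 46.4 CPM. The rst promoter had 32.5 CPM of H3K27ac in OK107, against 50.5 and 48.9 CPM in R57C10. At sns, H3K27ac was 103 CPM in OK107, within the 79.5 and 118 CPM of R57C10.

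The Netrin receptor and a Netrin moved apart. The receptor gene fra (2R, 8416561 to 8451691) had 1178 CPM in OK107, against 478 and 560 CPM in R57C10 (1.18 ± 0.16, adjusted p = 0.0052). NetB (X), which encodes a ligand of this receptor, had 525 CPM in OK107, against 987 and 1234 CPM in R57C10 (-1.08 ± 0.19, adjusted p = 0.014). The call of NetB ended with RLE scaling (adjusted p = 0.0553) and with the OK107 and R57C10 libraries alone (0.113, the highest over its alternatives, with 1.4e-50 as the lowest). The other Netrin gene, NetA, lay below both R57C10 libraries with a fold of -0.58 (adjusted p = 0.156). The fra promoter had 34.4 CPM of H3K27ac in OK107, against 76.5 and 60.8 CPM in R57C10. Of the 34 dpr and beat genes, surface proteins used in partner choice, 3 were higher (dpr13, beat-IIb and beat-IIa) and 0 lower. The shares over all genes were 1.57% and 0.617%. The call of beat-IIa ended without either Tdc2 library (adjusted p = 0.082 and 0.081, in a range of 1.2e-44 to 0.310).

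Teh1 (3R, 5653580 to 5693842), an auxiliary subunit of the para sodium channel, stood first among the 12 higher genes named by size of fold. It had 760 CPM in OK107, against 242 and 267 CPM in R57C10. The Tdc2 libraries, at 236 and 207 CPM, were close to R57C10, so OK107 stood above the 4 other libraries. The fold was 1.58 ± 0.16 (adjusted p = 0.0012), with inputs of 301 CPM in OK107 and 302 CPM in R57C10. The promoter had 48.3 CPM of H3K27ac in OK107, against 66.0 and 70.2 CPM in R57C10.
The T-type calcium channel gene Ca-alpha1T was the other higher gene of 17 sodium and calcium channel genes, at 0.72 ± 0.16 (adjusted p = 0.036), and 15 of the 17 lay above both R57C10 libraries, where the share over all genes was 36.9%. Without either Tdc2 library Ca-alpha1T was not called (adjusted p = 0.133 and 0.134, in a range of 8.8e-19 to 0.368). Of 32 neuropeptide and hormone receptor genes, 5 were higher and 1 lower, where the shares over all genes were 1.57% and 0.617%. The higher ones were Pdfr (1.06), DmsR-2 (0.88), NPFR1 (0.74), Takr99D (0.74) and Lkr (0.71), receptors for pigment-dispersing factor, myosuppressin, neuropeptide F, tachykinin and leucokinin. Pdfr was called under all 15 alternatives. The calls of the other 4 ended with RLE scaling and with the OK107 and R57C10 libraries alone, with adjusted p of up to 0.0902 for DmsR-2, 0.124 for NPFR1, 0.118 for Takr99D and 0.136 for Lkr. The lowest values over their alternatives were 3.3e-19, 7.6e-06, 7.1e-08 and 1.3e-07. The lower one was the sulfakinin receptor gene CCKLR-17D3 (-0.96). Among transmitter genes the vesicular GABA transporter gene VGAT was higher, with 39.2 CPM in OK107 and 18.8 and 17.4 CPM in R57C10 (1.12 ± 0.21, adjusted p = 0.016), and remained below or near input with log2 ratios of 0.12 in OK107 and -0.50 and -0.81 in R57C10. Without R57C10 late VGAT was not called (adjusted p = 0.076, the highest over its alternatives, with 2.9e-08 as the lowest). The metabotropic GABA receptor gene GABA-B-R3 and the glutamate-gated chloride channel gene GluClalpha had folds of 1.00 and 0.89.

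Other leading genes that were higher serve in RNA binding, signalling and metabolism. The Musashi family RNA-binding gene Rbp6 (3L, 17059848 to 17231310) had 2702 CPM in OK107, against 1136 and 1140 CPM in R57C10 (1.25 ± 0.16, adjusted p = 0.0039). With the OK107 and R57C10 libraries alone it was not called (adjusted p = 0.0911, the highest over its alternatives, with 5.5e-104 as the lowest). Its promoter shared by isoforms RC to RF had 94.2 CPM of H3K27ac in OK107, against 184 and 173 CPM in R57C10. The guanine nucleotide exchange factor gene RhoGEF3 had 291 CPM in OK107 and 114 and 109 CPM in R57C10, the integrin adaptor gene p130CAS 354 CPM in OK107 and 144 and 146 CPM in R57C10, and Spargel, the fly relative of PGC-1, 133 CPM in OK107 and 49.8 and 50.2 CPM in R57C10. The 3 genes were below input in R57C10, with log2 ratios between -0.81 and -1.18, and above it in OK107, with 0.28 to 0.53.
The Wnt antagonist gene nkd had 1399 CPM in OK107, against 578 and 722 CPM in R57C10 (1.11 ± 0.17, adjusted p = 0.0092), and was not called with the OK107 and R57C10 libraries alone (0.0792, the highest over its alternatives, with 3.8e-53 as the lowest). The temporal factor gene cas had 118 CPM in OK107, against 51.5 and 55.5 CPM in R57C10 (1.15 ± 0.17, adjusted p = 0.0075). The axonemal dynein gene Dhc36C, which serves cilia and sperm tails, had 1020 CPM in OK107, against 375 and 378 CPM in R57C10 (1.44 ± 0.16, adjusted p = 0.0020).

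The higher genes lay in groups. With called genes of one direction joined across gaps of up to 20 kb, the 229 higher genes fell into 124 groups, of which 50 held 2 or more genes and together 155 genes (67.7%). The 90 lower genes fell into 62 groups, of which 23 held 2 or more genes and together 51 (56.7%). No group held a call of the other direction. Groups with 5 or more called genes numbered 7 among the higher genes, with 50 genes in all, and 0 among the lower. Gene bodies that overlap share reads, and 56 higher and 24 lower genes overlapped another called gene of their direction, which leaves 196 and 78 loci.

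The group with the most called genes spanned 270.9 kb of 3R (17911093 to 18181986) around SKIP, whose protein binds the potassium channel Shal. All 19 tested genes in it had positive folds and 13 were called, among them the chemosensory receptor genes Ir94a, Ir94b and Ir94c (1.08, 1.07 and 1.06) and SKIP itself (1.22 ± 0.17). SKIP had 4051 CPM in OK107, against 1666 and 1814 CPM in R57C10. With the OK107 and R57C10 libraries alone SKIP was not called (adjusted p = 0.172, the highest over its alternatives, with 7.2e-132 as the lowest). Gld2, a poly(A) polymerase gene within SKIP, had a fold of 1.07. Within 60 kb on either side, 10 and 21 genes had median folds of -0.05 and 0.03, and 0 were called. The nearest gene on the first side, CG13408, had 0.53 at 1.90 kb, and the highest fold on the other side was 0.47.

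The group of Teh1 spanned 55.4 kb, and all 9 of its genes were called, with a median fold of 1.34. Beside Teh1 it held the fatty acid elongase gene eloF and its neighbours CG8534, CG16904, CG9459 and CG9458, with folds of 1.19 to 1.34. The level of eloF was 71.8 CPM in OK107, against 25.6 and 31.1 CPM in R57C10. The next gene before the group, FBX011, lay 3.38 kb away with a fold of -0.04, the 23 genes within 60 kb on that side had folds of -0.49 to 0.22, and Glut4EF, 6.56 kb after it, had 0.05. Paralogs share sequence, and the sources used here do not give how multiply aligned reads were counted, so values of eloF and its neighbours are uncertain to that extent.

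Other groups of higher genes included Dhc36C with CG15143, CG15144 and CG15145 on 2L (4 of 4 genes, median fold 1.44). Past its end the folds stayed up: the next gene, CR43304, had 1.29 at 9.62 kb (adjusted p = 0.069, in a range of 2.9e-11 to 0.688 over its alternatives), and the 6 genes within 60 kb had a median of 0.74 with 1 called. Before it, 16 genes had a median of -0.06 and 0 were called. A further group held the Osiris genes of 3R, of which Osi3 to Osi7 were called beside NPFR1 and CG15589 (7 of 8 genes). A second stretch held Osi17 to Osi20 (5 of 5 genes with CG17917). On X, kirre and rst were called in a span of 393.7 kb in which all 24 tested genes had positive folds and 4 were called. The median log2 input ratio of OK107 to R57C10 in that span was 0.49, and its part in these folds was not tested. The group of ey and bt on chromosome 4 differed in shape. The fold was -3.39 at ey and -0.82 at bt (638 CPM in OK107, against 993 and 1252 CPM in R57C10), a muscle titin gene that begins just after it and whose call ended in 6 of 15 alternatives. Without either Tdc2 library the adjusted p of bt was 0.137, in a range of 8.9e-40 to 0.329. That of Osi7 was 0.070 without R57C10 early, the highest over its alternatives (lowest 1.2e-04), and that of CG17917 was 0.056 without R57C10 early and 0.054 without R57C10 late (lowest 8.3e-11). The next genes, myoglianin on one side and MED26 on the other, were 1.64 and 2.37 kb away with folds of -0.01 and -0.03. With the inputs as an offset the folds were -2.60 at ey, 0.82 at myoglianin and 0.49 at MED26.

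**Figure D4:**
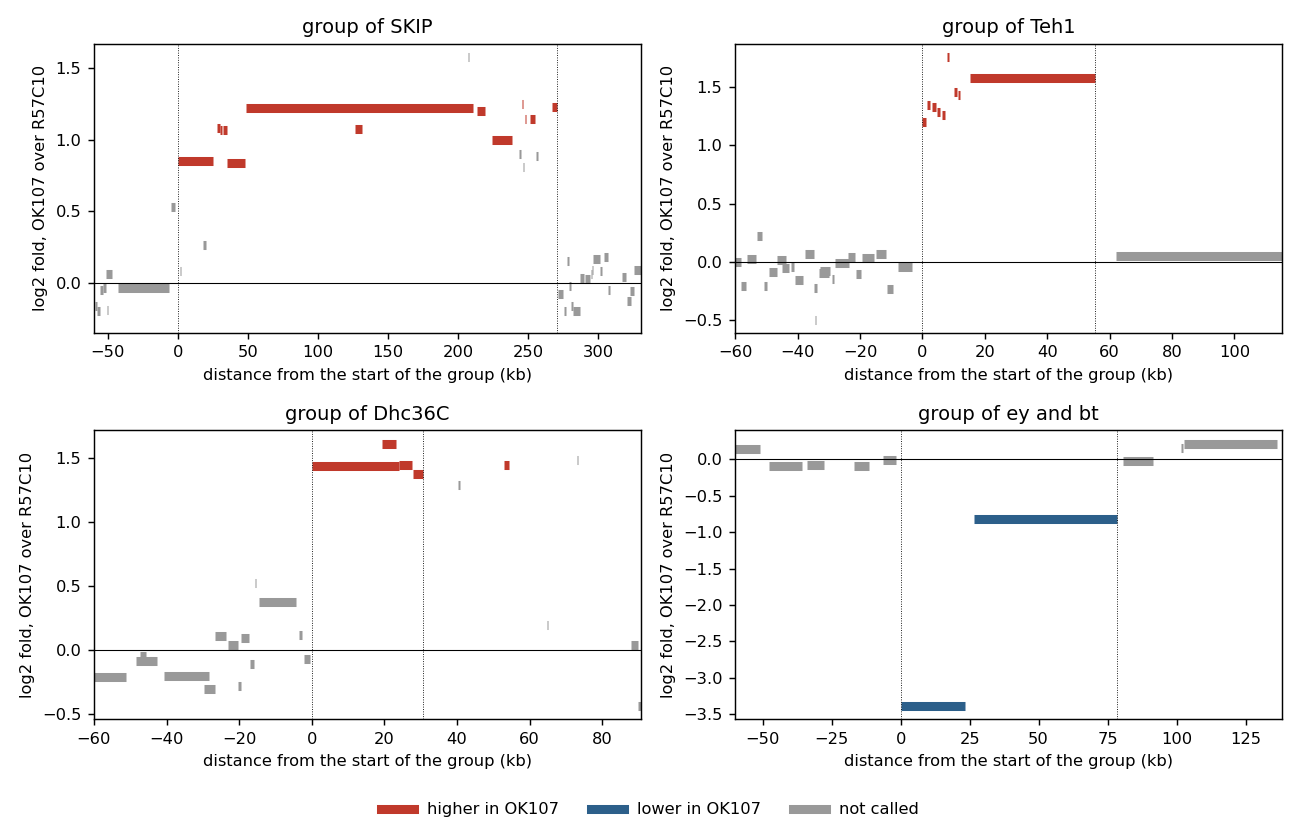
Gene bodies as bars at their log2 fold of OK107 over R57C10 (y axis), against distance in kb from the start of each of 4 groups of called genes, with 60 kb on either side. Dotted lines mark the ends of a group, and beside the groups of SKIP and Teh1 the bars outside these lines have medians of -0.05 to 0.05, with single genes up to 0.53 and down to -0.49. In the group of Dhc36C they stay up on one side (median 0.74), and ey at -3.39 stands beside bt at -0.82 and neighbours near 0.

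Strongly marked Polycomb targets were mostly alike. Of the 8 Hox genes, classic Polycomb targets that set body segment identity, 8 lay within the range of the R57C10 libraries, 0 were called, and their median fold was 0.01. Ubx had 6132 CPM in OK107, against 5453 and 7038 CPM in R57C10, and Antp had 7799 CPM, against 6666 and 8762 CPM. The sign of the Hox median depends on scaling and library: it was -0.22 without R57C10 early and 0.22 without R57C10 late. Ubx and Antp passed the test as lower without R57C10 early (-0.24 and -0.21) and as higher without R57C10 late (0.17 and 0.23). With genes classed by the Tdc2 libraries, which are outside the contrast, 907 genes had Tdc2 H3K27me3 more than 1 log2 unit above the Tdc2 input. Of these 2 (0.22%) were higher and 13 (1.43%) lower. The class from 0 to 1 held 3532 genes, with 87 higher (2.46%) and 41 lower (1.16%), and the class from -1 to 0 held 8843, with 140 and 36. The 1303 genes under -1 had 0 calls.

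Called genes were sorted by whether H3K27me3 lay above input. The H3K27me3 counts that gave the calls also set these classes, so the split is a description only. Of the 229 higher genes, 106 had H3K27me3 above input in OK107 only, 99 in both and 23 in neither. The other 1, mthl8, fell into the class of R57C10 only. It had 0 H3K27me3 counts and 0 input counts in R57C10, so that ratio comes from the prior count of 1. Of the 90 lower genes, 58 had H3K27me3 above input in R57C10 only, 24 in both, 8 in neither and 0 in OK107 only. Of the 14266 genes not called, 552 had it above input in OK107 only, 688 in R57C10 only, 2480 in both and 10546 in neither. All 229 higher genes lay above both R57C10 libraries, and OK107 lay above all 4 other H3K27me3 libraries, Tdc2 included, in 223 of them (97.4%). Of the 5160 genes not called that lay above both R57C10 libraries, OK107 lay above all 4 in 2635. All 90 lower genes lay below both R57C10 libraries, and OK107 lay below all 4 in 49 of them (54.4%). Of the 4606 genes not called that lay below both R57C10 libraries, OK107 lay below all 4 in 2062. The Tdc2 libraries entered the filter, the scaling and the estimate of spread, but the fold sets OK107 against R57C10 only.

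Of 24 pan-neuronal genes, 0 were called, their median fold was 0.28, and 19 lay above both R57C10 libraries, where the share over all genes was 36.9%. The 7 fertility genes of the Y chromosome all lay above both, with a median fold of 0.30 beside a median log2 input ratio of -0.64, and 1 was called higher (kl-2, 1.29). The neuronal cadherin gene CadN was nearest to a call, with 1187 CPM in OK107, against 722 and 783 CPM in R57C10 (0.66, adjusted p = 0.059), and the synaptic fusion gene Snap25 had 1051 CPM, against 729 and 753 CPM. Of 66 other homeobox genes, 2 were lower (ey and toy) and 1 was higher (scro). The call of scro ended without either Tdc2 library (adjusted p = 0.096, in a range of 5.8e-42 to 0.329). None of the 20 glial genes, 35 Polycomb and trithorax genes or 93 cytoplasmic ribosomal protein genes was called, and their median folds were -0.0015, 0.02 and -0.14. Of 59 chemosensory ionotropic receptor genes, 5 were higher (Ir94a, Ir94b, Ir94c, Ir67b and Ir67c) and 0 lower. These 5 had folds of 0.89 to 1.08, and they lie at 2 loci, since the first 3 adjoin each other and Ir67b adjoins Ir67c. The share of higher genes over all genes was 1.57%. Without R57C10 early, Ir67b and Ir67c were not called (adjusted p = 0.175 and 0.231, the highest over their alternatives, with 4.0e-05 and 6.6e-05 as the lowest), and without R57C10 late Ir67b had 0.0502.

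**Figure D5:**
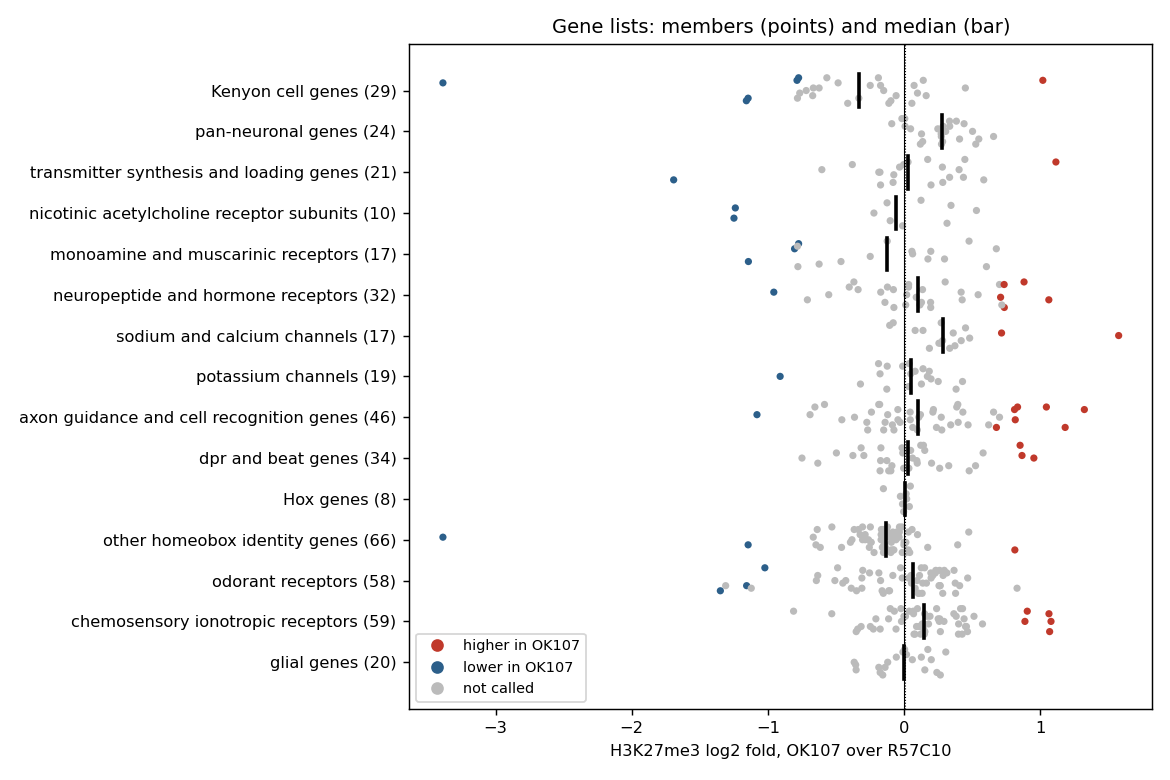
Log2 fold of OK107 over R57C10 for the tested members of 15 gene lists (points, with the number tested in brackets) and their median (bar). Called members lie to the left for the nicotinic and monoamine receptors and to the right for dpr and beat and sodium and calcium channel genes. Of the cell recognition genes 7 lie to the right and NetB to the left, with ey at -3.39 and all 8 Hox genes near 0.

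At promoters of the called genes, H3K27ac more often lay opposite to H3K27me3 than across all genes. OK107 H3K27ac lay below both R57C10 libraries in 136 of the 229 higher genes (59.4%), beside 43.2% of genes not called, and above both in 56 (24.5%), beside 37.2%. Among the 90 lower genes it lay above both in 51 (56.7%) and below both in 29 (32.2%). H3K4me3 did not lie one way at the higher genes. It lay below both R57C10 libraries in 66 of them (28.8%), beside 15.3% of genes not called, and above both in 64 (27.95%), beside 22.9%. H3K4me3 lay above both in 27 of the lower genes (30.0%), beside 22.9%, and below both in 13 (14.4%), beside 15.3%. Across all 14585 genes the log2 differences in H3K27me3 and in promoter H3K27ac had a Pearson r of -0.01 (the genes share libraries, and neighbours share domains). Over the 319 called genes r was 0.08 with H3K27ac and 0.30 with H3K4me3, and the Spearman rho was -0.25 and 0.09. These genes include mthl8 with its fold of 11.18, and its part in r was not tested.

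Inputs differed at some called genes. The log2 ratio of the OK107 to the R57C10 input passed 0.5 in size in 16 of the higher and 5 of the lower genes. At all 5 of these lower genes, ey and toy among them, the OK107 input was the lower one. At these 16 higher genes the OK107 input was the higher one, apart from Ir67b, CG32115, Ir94a, Ir94b and Obp51a. The genes mthl8, CG3397 and Cyp6a17 were singled out after their values were seen. Their log2 input ratios were 9.92, 3.27 and -1.69, beside H3K27me3 folds of 11.18, 3.35 and -1.93. The gene mthl8, of the methuselah receptor family, had 491 H3K27me3 counts in OK107 and 0 in each R57C10 library, and 1188 input counts in OK107 and 0 in R57C10. Against a floor of 3 counts per library its H3K27me3 was at least 151-fold higher than in R57C10 early and 104.1-fold higher than in R57C10 late. Against the same floor its OK107 input was at least 322-fold higher than the R57C10 input. Tdc2 had 0 H3K27me3 counts in each library and 4 input counts. In OK107 the H3K27me3 of mthl8 lay below input, with a log2 ratio of -1.24. CG3397 had 757 H3K27me3 counts in OK107, against 63 and 51 in R57C10, with 780 input counts in OK107 and 65 in R57C10. The P450 gene Cyp6a17 had 216 H3K27me3 counts in OK107, against 758 and 525 in R57C10, with 243 input counts in OK107 and 638 in R57C10. With the inputs as an offset none of mthl8, CG3397 and Cyp6a17 was called (adjusted p = 0.662, 0.938 and 0.775, in each case the highest over the gene's alternatives, of which the lowest were 1.1e-111, 5.5e-68 and 3.0e-20). Of the 6 called pre-mod(mdg4) entries of 3R, 5 overlap and share reads. The other, pre-mod(mdg4)-V, begins just past their end and had an input of 23.4 CPM in OK107 and 11.3 CPM in R57C10.

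By chromosome, 91 of the higher genes lay on 3R (2.54% of its 3588 genes), 45 on 2L, 38 on 2R, 34 on 3L and 16 on X. The heterochromatin scaffolds had the largest share, with 5 higher genes of 77 (6.49%), and a median log2 input ratio of -0.29. The 84 tested genes of chromosome 4 held 5 lower and 0 higher genes, and the median input ratio there was -0.55 on the log2 scale, where X had 0.20 and the 4 large autosomal arms lay between 0.03 and 0.05. With the inputs as an offset ey was called and toy was not. The part of the input in the chromosome 4 calls was not tested further.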

How the data were processed

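The measurements were ChIP-seq libraries and inputs of captured neuronal nuclei. The authors deposited raw read counts per annotated isoform, over gene bodies and in 1001 bp promoter windows, on the dm3 build. Per the submitters' processing notes, CASAVA 1.8, Bowtie 0.12.7 and bedtools 2.15 were used. How multiply aligned reads were counted is not given in the sources used here. Of 25701 isoform entries, 203 without a gene, which held 0.46 to 0.55% of H3K27me3 gene-body counts, were left out. The isoform with the largest summed H3K27me3 count was kept for each gene. Of the tables' columns, 70 were not used.

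Counts were tested with edgeR 4.0.16 (R 4.3.3) by the quasi-likelihood test, with TMM scaling, filterByExpr, all 5 H3K27me3 libraries (2 residual degrees of freedom) and Benjamini-Hochberg adjustment over 14585 genes. The scripts were checked on simulated counts of 14585 genes. Of 100 genes changed 2-fold 63% were recovered, and of 100 changed 4-fold 100%, with 10 false calls. Promoter values, inputs and lists have no test. Promoter counts of H3K27ac and H3K4me3 were scaled by TMM, inputs by total count. Ratios to input used CPM by total count in both. A log2 fold comes from the fitted model. Ratios to input and between inputs were taken with a prior count of 1. Counts include duplicates as the authors left them, and the part of depth in the precision was not tested.

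Named genes were the 12 largest called folds in each direction above the median level (18.8 CPM) outside the R57C10 range and with a name other than a bare CG or CR number, up to 5 members of each of 32 lists, all Kenyon cell genes, neighbours of the first set and the longest groups; others were singled out after their values were seen. Members and lists were chosen with earlier results of these data known, and 14 list entries matched no gene. Alternatives were other scalings, filters, isoforms, DESeq2 1.42.0, an input offset and leaving out libraries.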

Additional observations from a re-analysis of the deposited data

How the results depend on the processing

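The count of called genes (319 as reported, 229 higher and 90 lower) moved with the setting. It was 146 (118 higher, 28 lower) with RLE scaling, 634 (369 and 265) with total count scaling, 496 (302 and 194, 60.9% higher) with loess scaling by level and 459 (304 and 155) with loess scaling by enrichment. DESeq2 gave 475 (294 and 181), the OK107 and R57C10 libraries alone 978 (598 and 380), and an input offset 560 (373 and 187). Leaving out 1 library gave 651 to 993 called genes, 274 to 653 higher and 143 to 573 lower. The share that was higher, 71.8% as reported, was 32.4% without R57C10 early. The filter on low counts, the isoform and the chromosomes used left the counts within 1.5 times. The cause was not tested. No call changed sign. Under all alternatives other than leaving out 1 library, 119 of 319 calls held. The OK107 and R57C10 libraries alone are among these alternatives. Of 76 called genes named above, 37 were called under every alternative that gave a value; RLE scaling ended the call of 30, the OK107 and R57C10 libraries alone of 26, and leaving out 1 library of 4 to 8. Among genes without a call, Antp (0.02 as reported) had -0.00026 with RLE scaling, -0.00026 with DESeq2, -0.0145 with total count scaling, -0.0091 with the 3 OK107 and R57C10 libraries and -0.0067 with the input offset. Ubx (-0.03) had 0.011 and 0.11 with the loess scalings. With the input offset MED26 and myoglianin had 0.49 and 0.82. Leaving out 1 library, the log2 fold ranged from -0.21 to 0.23 at Antp, -0.24 to 0.17 at Ubx, -0.0077 to 0.069 at Glut4EF, -0.16 to 0.068 at MED26 and -0.12 to 0.067 at myoglianin. No paired analysis was possible because OK107 has 1 H3K27me3 library and the columns carry date tags, not replicate numbers.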
